A study of Homo sapiens with 3 samples.

Results

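YTHDC1 occupancy was examined at the genes that encode RNA polymerase II (RNAPII) and the factors that hold it near the start of a gene and release it into elongation. The list held 42 protein-coding genes of 20163 and was chosen by function, with earlier results of these data known. It named 11 RNAPII subunits and genes of NELF, DSIF, SPT6 and FACT, P-TEFb and the 7SK and HEXIM inhibitors. It also named genes of the super elongation complex, the PAF complex and TFIIS, and the kinases CDK12 and CDK13. A gene was said to carry a peak when at least 1 base of a peak lay no more than 200 bases from a transcription start site that GENCODE release 44, mapped to hg19, gives for it. The samples were 3 replicates of YTHDC1 ChIP-seq in wild-type A549 cells, a lung adenocarcinoma line, crosslinked with formaldehyde; the labels name no siRNA and no agent, and do not say whether the replicates were separate cultures. The authors pooled the reads before calling 6368 peaks, so each value below belongs to a single pooled set, with no error between replicates, and the depth behind it is unknown. No statistical test was made on it. No input or IgG library was used here, so occupancy by YTHDC1 and signal that a control library would also show at a start cannot be told apart. A peak at a start is not a measure of expression. It was present at 4 of 5 epithelial marker genes (EPCAM, KRT7, KRT8 and KRT18, not CDH1).

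After initiation, RNAPII often stops shortly downstream of the start, where the DSIF and NELF complexes bind it. The kinase P-TEFb, made of CDK9 and a cyclin T, phosphorylates both complexes and the polymerase tail, NELF leaves and the polymerase moves into the gene with SPT6, the PAF complex and DSIF. P-TEFb is kept inactive by HEXIM proteins on the 7SK small nuclear RNA, and active P-TEFb works within the super elongation complex. YTHDC1 is a nuclear reader of m6A in RNA, and the study measured it on chromatin beside RNAPII to examine this pausing step.

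Of the 42 genes, 17 carried a YTHDC1 peak at a start, or 40.5% (95% Wilson interval 27.0 to 55.5, for counting error only), where 15.7% of all protein-coding genes did. At least 1 gene carried a peak in 10 of the 11 groups, TFIIS with TCEA1 as its only listed gene being the exception. With peaks of q-value under 0.05 this fell to 5 of 11, where 8.96% of all protein-coding genes carried such a peak. Without that limit, both DSIF genes carried a peak, as did 3 of the 4 genes for the 7SK and HEXIM inhibitors and 2 of the 3 P-TEFb genes. At the other end were the PAF complex and the subunits shared by all nuclear RNA polymerases, each with 1 of 5, and NELF with 1 of 4. These counts are of listed genes and not always of whole complexes. POLR2J of RNAPII and SKIC8 of the PAF complex were not listed and had no peak. With the stricter q-value P-TEFb, NELF, SPT6 and FACT, the shared subunits and the CDK12 and CDK13 pair had 0 genes with a peak. DSIF had 1 of 2 and the 7SK and HEXIM inhibitors 2 of 4. With a share of 8.96% over all protein-coding genes, 0 in groups this small sets no complex apart. The 17 genes held 19 peaks, because CDK13 had 3. The strength of a peak is given below as the −log10 of its q-value as deposited, where a q-value of 0.05 corresponds to 1.30 and a higher value is a stronger peak.

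**Figure D1:**
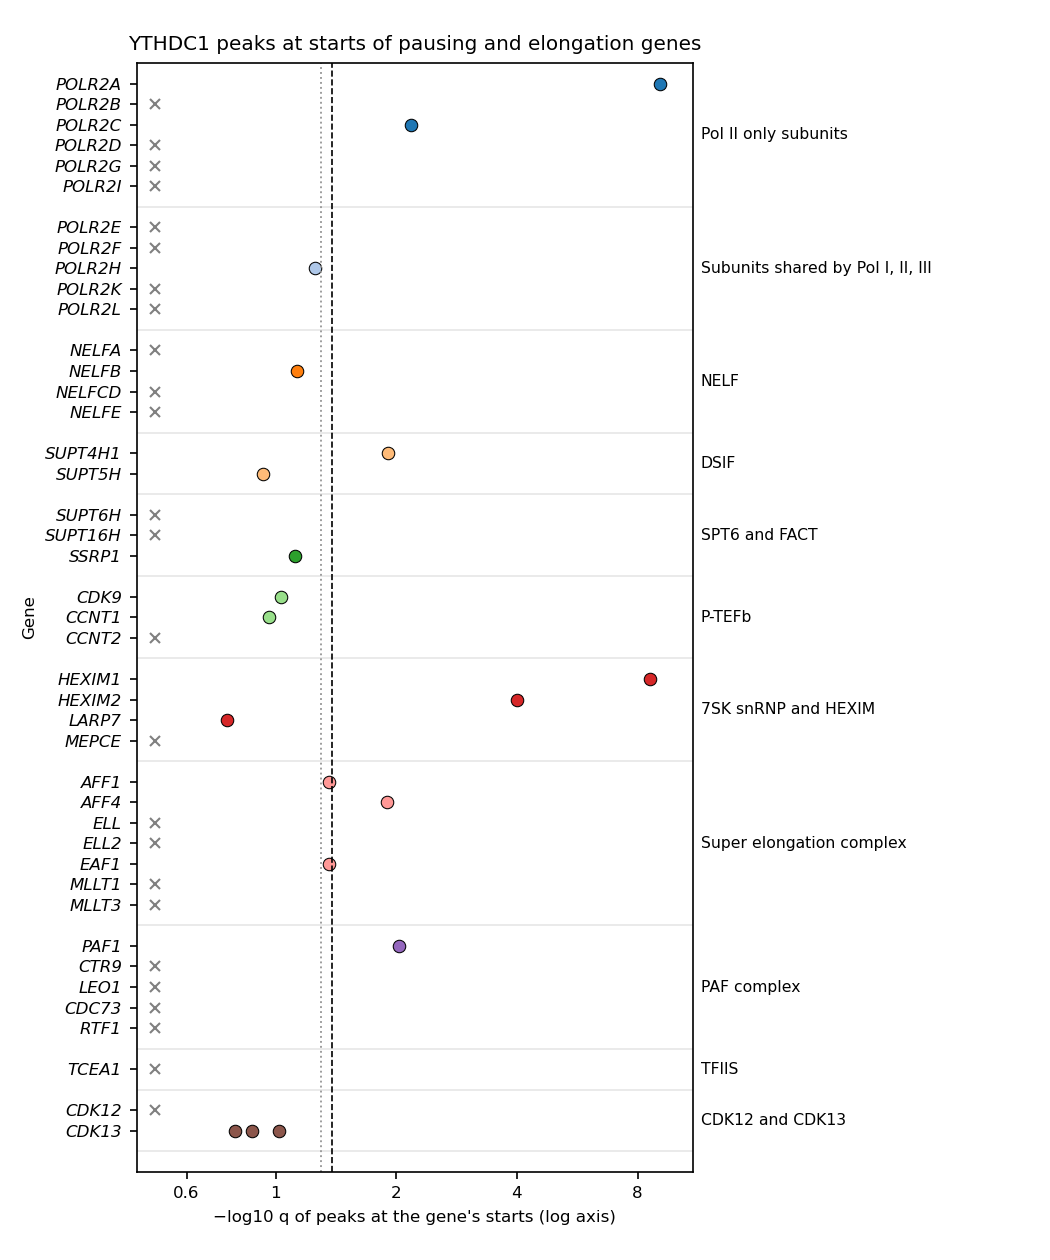
The −log10 q of each peak at a start (x axis, log scale) for the 42 genes (y axis, grouped by complex), with filled points for peaks and grey crosses for the 25 genes without a peak, whose place on the x axis carries no value. The dotted line marks a q-value of 0.05 and the dashed line the median of the peaks at protein-coding starts, 1.39. POLR2A and HEXIM1 stand at 9.10 and 8.58, and 10 of the 19 peaks lie below the dotted line.

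The sequences before the starts of 6 genes are shown first, on the strand of the gene. POLR2A, HEXIM1, HEXIM2 and POLR2C had the highest peak values of the list, and the peaks of POLR2A, LARP7 and EAF1 also lay at the start of a protein-coding neighbour on the other strand (ZBTB4, ZGRF1 and METTL6). Each is the part, nearest to the start, of the 250 bases before it that holds no exon of a transcript with a coding sequence, be it of the gene itself or of its neighbour. Capitals mark matches on either strand to 8 short motifs. Those for common promoter factors were GGGCGG, known as the GC box, and CCAAT, which NF-Y binds. The TATA box was searched as TATAAA. The core of ETS factor sites was searched as CCGGAA, the cyclic AMP response element as TGACGTCA and the E-box as CACGTG. A part of the sites of YY1 was searched as ATGGCG, and for NRF1 the motif was GCGCATGC. A match is a string of letters and not a measured site.

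The stretches are written 5' to 3'. The HEXIM1 stretch lies before its peak, the POLR2C stretch wholly within its peak, and those of POLR2A, HEXIM2 and LARP7 share 30, 63 and 3 bases with theirs. The EAF1 stretch shares 0.
POLR2A, hg19 chr17:7387583-7387684, plus strand: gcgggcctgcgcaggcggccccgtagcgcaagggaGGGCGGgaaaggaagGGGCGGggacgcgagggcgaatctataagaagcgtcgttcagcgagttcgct
HEXIM1, hg19 chr17:43225592-43225841, plus strand: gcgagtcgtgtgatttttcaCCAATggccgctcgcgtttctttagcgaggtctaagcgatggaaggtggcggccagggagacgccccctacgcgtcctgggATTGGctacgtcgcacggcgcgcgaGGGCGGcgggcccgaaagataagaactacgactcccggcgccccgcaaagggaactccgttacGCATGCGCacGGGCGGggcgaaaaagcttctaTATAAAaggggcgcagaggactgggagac
HEXIM2 before another annotated start, hg19 chr17:43238311-43238444, plus strand: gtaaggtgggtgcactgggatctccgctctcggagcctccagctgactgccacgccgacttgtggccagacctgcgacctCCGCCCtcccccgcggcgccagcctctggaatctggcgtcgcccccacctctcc
POLR2C, hg19 chr16:57496341-57496580, plus strand: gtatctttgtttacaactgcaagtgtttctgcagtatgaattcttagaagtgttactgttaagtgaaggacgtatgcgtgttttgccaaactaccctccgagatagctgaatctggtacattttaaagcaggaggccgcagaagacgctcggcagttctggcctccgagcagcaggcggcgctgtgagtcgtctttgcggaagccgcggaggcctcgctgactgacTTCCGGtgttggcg
LARP7, hg19 chr4:113558146-113558262, plus strand: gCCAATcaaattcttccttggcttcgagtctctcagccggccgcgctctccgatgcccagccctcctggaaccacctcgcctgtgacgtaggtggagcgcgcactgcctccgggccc
EAF1, hg19 chr3:15469052-15469104, plus strand: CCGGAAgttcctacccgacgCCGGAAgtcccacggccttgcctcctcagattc

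Positions of the first base of a match were counted from 1 at the first transcribed base, with negative positions upstream. The HEXIM1 stretch has TATAAA at position -29, with GGGCGG at -51 and -124 and CCAAT matches at -149 and -230. It also has a match to the NRF1 motif, GCATGCGC, at -61. POLR2A has 2 GC boxes, at -52 and -67. POLR2C has a single match, the ETS core at -24. EAF1 has the ETS core at -33 and -53. HEXIM2 has a GC box at -70 and LARP7 has CCAAT at -152.

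Among the listed subunits found only in RNAPII, POLR2A and POLR2C carried peaks and POLR2B, POLR2D, POLR2G and POLR2I did not. POLR2A encodes the largest subunit, whose tail the elongation kinases phosphorylate. Its peak (chr17:7387655-7388072, 418 bases) had a −log10 q of 9.10, the highest of the list, and ranked 16 of the 2998 peaks at protein-coding starts. It ran from position -30 to 387 relative to the start, with the midpoint in exon 1 of 30, in the 5' UTR, and the annotated start of ZBTB4 lay 103 bases upstream. A weaker peak followed, centred in intron 1 (chr17:7388329-7388582, 254 bases, −log10 q 0.816). POLR2C encodes a subunit of the assembly platform of the enzyme. Its peak (chr16:57496314-57496899, 586 bases) had a −log10 q of 2.18, was centred 15 bases after the start and covered 7 of the gene's 8 annotated starts. For POLR2B, the second largest subunit, the nearest peak lay 86191 bases from a start. The distances were 375304 bases for POLR2D and 23977 for POLR2G, the subunits of the stalk, and 24093 for POLR2I.

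Of the 5 subunits shared with RNA polymerases I and III, only POLR2H carried a peak (chr3:184081189-184081570, 382 bases, −log10 q 1.26, a q-value above 0.05). This peak did not lie at the canonical start. It began 1691 bases downstream, was centred in intron 2 of the canonical transcript and covered 2 other annotated starts of the gene. The nearest peaks to POLR2E, POLR2F, POLR2K and POLR2L were 24604, 69439, 409027 and 37285 bases from a start.

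NELF, which stabilises the paused polymerase, had a peak at NELFB alone (chr9:140149875-140150528, 654 bases, −log10 q 1.13). It began 96 bases after the single annotated start of the gene and its midpoint lay in intron 1. NELFA, NELFCD and NELFE had their nearest peaks at 371118, 48411 and 1829703 bases. Both subunits of DSIF, the partner of NELF that stays with the polymerase during elongation, carried a peak. The SUPT4H1 peak (chr17:56429089-56429582, 494 bases, −log10 q 1.90) covered the canonical start and reached 473 bases into the gene. The SUPT5H peak (chr19:39935833-39936102, 270 bases, −log10 q 0.931) was weaker and lay wholly upstream, from position -389 to -120 relative to the canonical start. A second peak near SUPT5H (chr19:39926241-39926508, −log10 q 1.82) was at the start of the ribosomal protein gene RPS16.

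Among the histone chaperones that travel with RNAPII, the FACT subunit SSRP1 carried a peak (chr11:57102878-57103323, 446 bases, −log10 q 1.12), which began 43 bases after the canonical start. Its partner SUPT16H had the nearest peak at 71810 bases. SUPT6H was the nearest miss of the list. A peak (chr17:26988687-26988973, 287 bases, −log10 q 1.28) ended 243 bases from a start of SUPT6H, outside the window, and lay at the start of its divergent neighbour SDF2. Just inside the window was CDK9, whose peak began 155 bases from its nearest annotated start and 195 bases from the canonical one.

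Of the P-TEFb genes, both subunits of the CDK9 and cyclin T1 complex carried a peak. CDK9, the kinase subunit, had a peak centred in intron 1 (chr9:130548508-130549131, 624 bases, −log10 q 1.03). CCNT1, encoding cyclin T1, had one that covered the start and reached 571 bases downstream (chr12:49109919-49110558, 640 bases, −log10 q 0.962). CCNT2, encoding the related cyclin T2, had none within 796978 bases. Both P-TEFb peaks were wide, above 86.1% and 87.4% of the peaks at protein-coding starts, and had q-values above 0.05.

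Higher values were found at the inhibitors of P-TEFb. HEXIM1, a gene of a single exon, carried a peak centred in its 5' UTR (chr17:43225917-43226678, 762 bases) with a −log10 q of 8.58, rank 20 of the 2998. It began 75 bases after the start, and a second peak (chr17:43226837-43227604, 768 bases, −log10 q 2.26) was centred in the coding sequence. HEXIM2 lies on the same strand, with its canonical start 13400 bases further along chromosome 17. Its peak (chr17:43238382-43238940, 559 bases) had a −log10 q of 4.01 and covered 2 other annotated starts of the gene, ending 302 bases before the canonical start. It was also a peak at the start of the antisense RNA gene HEXIM2-AS1. LARP7, which protects 7SK RNA, had the lowest value of all (chr4:113558260-113558579, 320 bases, −log10 q 0.757) although the peak covered 12 of its 28 annotated starts. MEPCE, which caps 7SK RNA, had no peak, the nearest being 5707 bases away.

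In the super elongation complex, the scaffold genes AFF1 and AFF4 and the ELL partner gene EAF1 carried peaks. The AFF4 peak (chr5:132298858-132299418, 561 bases, −log10 q 1.90) spanned the canonical start, from position -92 to 468. The AFF1 peak (chr4:87928160-87928385, 226 bases, −log10 q 1.36) had the lowest width in the file, shared by 220 peaks, and lay 71997 bases beyond the canonical start, 10 bases from another annotated start. The EAF1 peak (chr3:15468815-15469046, 232 bases, −log10 q 1.36) lay upstream, on the side of METTL6, whose start is 54 bases from that of EAF1. The elongation factor genes ELL and ELL2 had none within 54914 and 63132 bases, and the YEATS domain genes MLLT1 and MLLT3 none within 196441 and 61749 bases.

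In the PAF complex, which rides with elongating RNAPII and supports histone modification, PAF1 alone had a peak (chr19:39881409-39881679, 271 bases, −log10 q 2.03). It ran from 67 to 337 bases after the start, with the midpoint in exon 1 of 14. CTR9, LEO1, CDC73 and RTF1 had none, with the nearest peaks at 32634, 167713, 474298 and 76044 bases. TCEA1, encoding the factor that restarts backtracked polymerase, had the nearest peak at 76275 bases.

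The kinase gene CDK13 carried 3 peaks, the most of the list, all with q-values above 0.05. Those at chr7:39989404-39989772 (369 bases, −log10 q 0.874) and chr7:39989834-39990219 (386 bases, −log10 q 0.791) lay upstream of the canonical start and over it. That at chr7:39991121-39991519 (399 bases, −log10 q 1.02) was centred in the coding part of exon 1 and covered another annotated start. CDK12, its paralogue, had none within 23480 bases. Among the listed genes, paralogues were thus alike for HEXIM1 and HEXIM2 and for AFF1 and AFF4, which all carried peaks. ELL and ELL2 were alike without a peak, as were MLLT1 and MLLT3. Listed paralogues were unlike for CCNT1 and CCNT2 and for CDK13 and CDK12. Off the list, ELL3 had no peak either, and EAF2, AFF2 and AFF3 had none, unlike EAF1, AFF1 and AFF4.

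**Figure D2:**
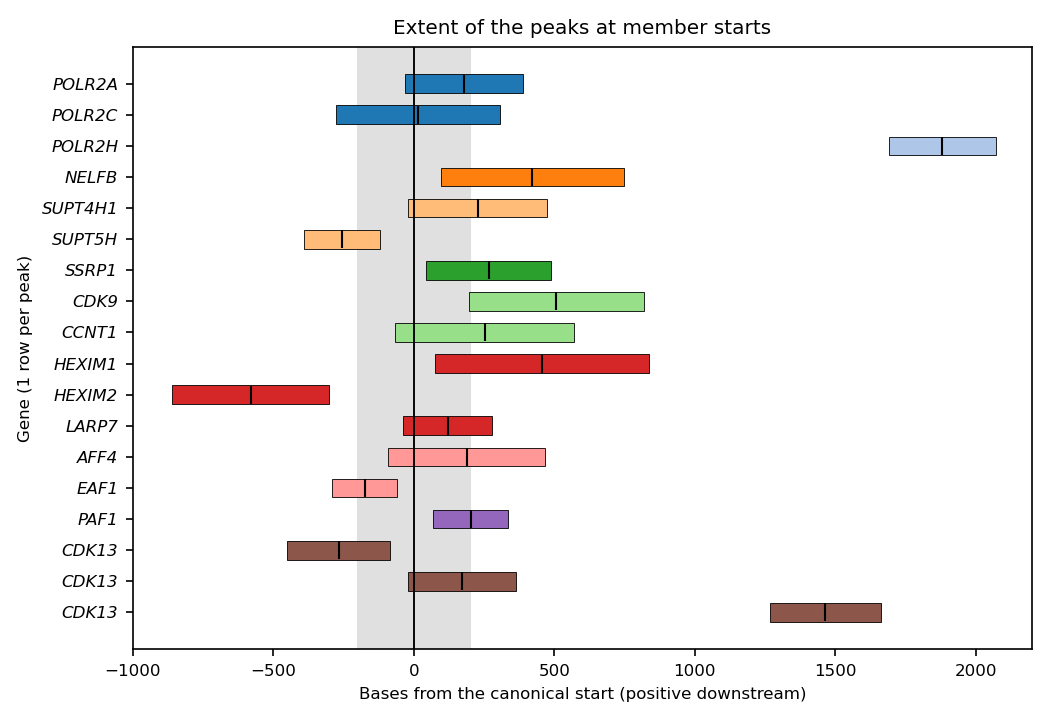
Extent of 18 of the 19 peaks (bars, 1 row per peak, with the midpoint as a black tick) relative to the canonical start of the gene (x axis, bases, positive downstream). The shaded band is the window of 200 bases, colours mark the complex, and the AFF1 peak, 71997 bases downstream, is left out. Most bars lie to the right of the start, with SUPT5H, HEXIM2, EAF1 and a CDK13 peak to the left and POLR2H and a CDK13 peak over 1000 bases downstream.

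Of the 15 peaks within 200 bases of a canonical start, 12 (80.0%) had the midpoint downstream of it and 3 upstream, where 1496 of the 2245 peaks at canonical protein-coding starts (66.6%) were downstream. Measured from the nearest start of the same gene, 12 of the 19 midpoints were downstream (63.2%), with a median of 70 bases, near the 1715 of 2998 (57.2%) at protein-coding starts, with a median of 21 bases. A start of the gene was covered by 12 of the 19 peaks (63.2%), near the 66.9% among the 2998. With canonical starts alone, 14 of the 42 genes carried a peak, against 11.7% of all protein-coding genes, and AFF1, HEXIM2 and POLR2H were the ones lost.

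In width and value the 19 peaks resembled other start peaks, apart from a few. Their median width was 418 bases (range 226 to 762), and that of the 2998 was 373 bases. Their median −log10 q was 1.26 (range 0.757 to 9.10), and that of the 2998 was 1.39. Only 7 of the 19 were above that median. POLR2A, HEXIM1 and HEXIM2 were the only genes of the list above 4. A q-value under 0.05 was reached by a peak at 9 of the 42 genes (POLR2A, POLR2C, SUPT4H1, HEXIM1, HEXIM2, AFF1, AFF4, EAF1 and PAF1), against 8.96% of all protein-coding genes. At POLR2H, NELFB, SUPT5H, SSRP1, CDK9, CCNT1, LARP7 and CDK13 the q-values were all above 0.05.

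**Figure D3:**
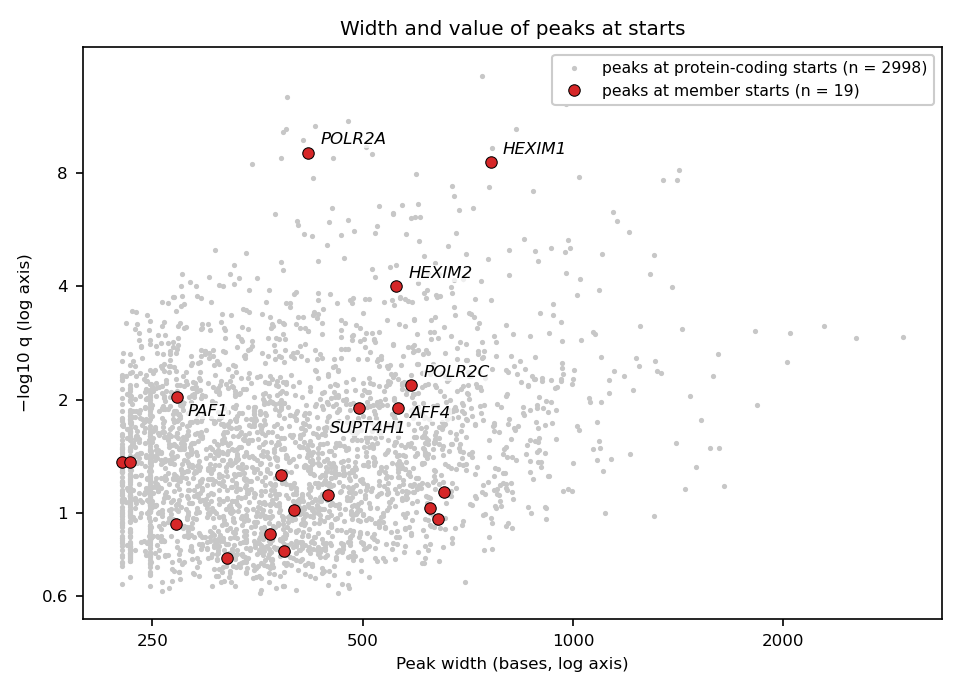
Peak width (x axis, bases, log scale) against −log10 q (y axis, log scale) for the 2998 peaks at protein-coding starts (grey) and the 19 peaks at starts of the listed genes (red, named above a −log10 q of 1.8). POLR2A (418 bases, 9.10) and HEXIM1 (762 bases, 8.58) rank 16 and 20 of the 2998 by −log10 q, and most of the others lie within the dense part of the grey points.

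A gene with many annotated starts has more windows in which a peak can fall. The 17 genes with a peak and the 25 without had the same median of 8 starts, against 5 over all protein-coding genes. Among genes with 1 to 5 starts, 6 of 11 listed genes carried a peak, where the share of all such genes was 10.4%. With 6 to 10 starts it was 6 of 19 against 18.1%, with 11 to 20 starts 3 of 10 against 23.98%, and with 21 or more, CDK13 and LARP7, 2 of 2 against 29.8%.

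Chromosome 17 held 513 of the peaks and 4 of the 17 genes with a peak, POLR2A, SUPT4H1, HEXIM1 and HEXIM2, out of 6 listed genes there, and 21.9% of all its protein-coding genes carried a peak. The 3 highest values of the list were all on this chromosome. On the other chromosomes 13 of 36 listed genes had a peak, against 15.3%.

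The promoters of the listed genes were rich in GC and CpG whether or not a peak was called. Genes were split by a peak at any start, and AFF1, HEXIM2 and POLR2H had none within 200 bases of the canonical start. From 250 bases before to 50 after the canonical start, the GC share was 66.5% ± 9.59 (SD over genes, n = 17) with a peak and 65.2% ± 7.97 (n = 25) without. The ratio of observed to expected CpG was 0.928 ± 0.138 and 0.978 ± 0.126. Both differences were smaller than the SD. Over all protein-coding genes the GC share was 65.96% ± 8.72 (n = 3163) with a peak and 61.4% ± 12.3 (n = 17000) without, and the CpG ratio 0.836 ± 0.202 and 0.648 ± 0.326. These differences were smaller than the SD too, which is a spread over genes and no test of a difference. The mean GC share of the listed genes without a peak was close to that of those with one, 65.2% and 66.5%.

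**Figure D4:**
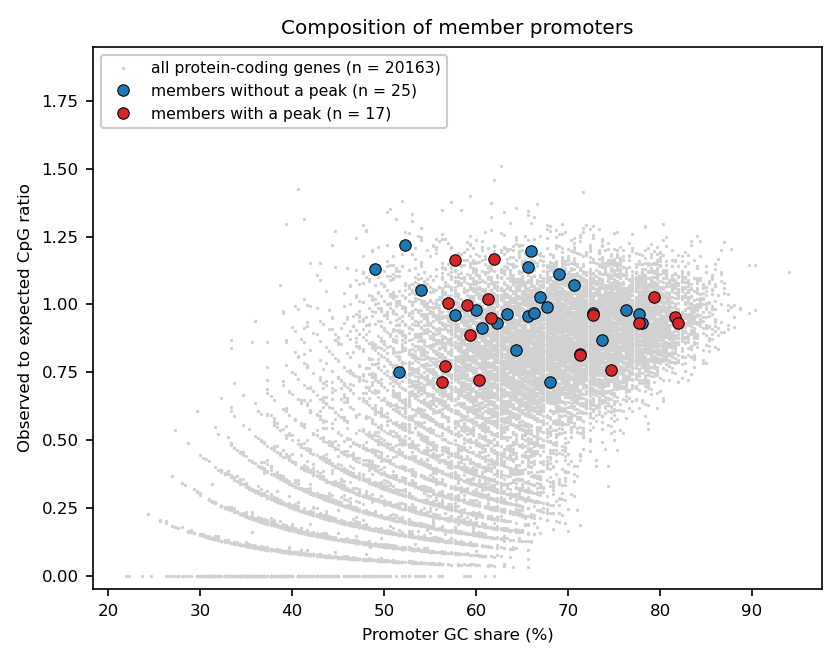
GC share (x axis, percent) against the ratio of observed to expected CpG (y axis) of the promoter, from 250 bases before to 50 after the canonical start, for all 20163 protein-coding genes (grey), the 25 listed genes without a peak (blue) and the 17 with one (red). A peak at any start of the gene counted. Red and blue points share the same region, with a lowest CpG ratio of 0.715 and 0.714.

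The same windows were searched for the motifs named above, on both strands, where a match to one motif may overlap a match to another. Genes were again split by a peak at any start, with AFF1, HEXIM2 and POLR2H among the 17. The ETS core CCGGAA was in 21 of the 42 promoters (50.0%), where 22.6% of all protein-coding promoters held it, and in 9 of the 17 with a peak and 12 of the 25 without. The NRF1-type GCGCATGC was in 8 (19.05% against 4.26%), 2 with a peak (HEXIM1 and NELFB) and 6 without. The GC box was in 33 (78.6% against 60.9%), 14 with a peak and 19 without. CCAAT was in 14 (33.3% against 35.9%), 7 of each. TATAAA was in the HEXIM1 promoter alone, 2.38% against 9.80%. ATGGCG was in 10 (23.8% against 14.5%), 2 with a peak and 8 without. CACGTG was in 5 (11.9% against 8.74%) and TGACGTCA in 2, LARP7 and ELL2 (4.76% against 2.68%). Promoters of all protein-coding genes with a peak held CCGGAA in 35.3%, GCGCATGC in 4.68%, the GC box in 73.6% and CCAAT in 32.5%. They held TATAAA in 5.09%, ATGGCG in 19.8%, CACGTG in 9.23% and TGACGTCA in 2.75%.

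Of the 42 promoters, 13 had a protein-coding start on the other strand within 1000 bases upstream of the canonical start. Of these 13 genes, 6 carried a peak at any start (46.2%), and of the other 29 listed genes 11 did (37.9%). Over all protein-coding genes the shares were 19.2% with such a neighbour and 15.2% without. Peaks of POLR2H and AFF1, among the 6, and of HEXIM2, among the 11, lay 1691, 71997 and 302 bases from the canonical start. The shares are thus not of peaks at the canonical promoters alone. The peaks of POLR2A, LARP7 and EAF1 lay within the windows of both genes of the pair, so the gene they belong to cannot be told apart. A further 4 peaks lay at a start of a lncRNA gene too, and 12 of the 19 lay at starts of the listed gene only.

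Coverage outside called peaks was not measured. Of the 25 genes without a peak at a start, only SUPT6H had a peak inside the gene body extended by 1000 bases at each end (4.00%, against 11.2% of the 17000 protein-coding genes without a peak at a start). The median distance from a start to the nearest peak was 69439 bases (quartiles 32634 and 196441), and over the 17000 genes it was 105950. Of the 17 genes with a peak, POLR2A, SUPT5H and HEXIM1 had a further peak beyond their starts, described above.

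Other parts of the transcription machinery were counted in the same way. Integrator, which ends transcription of paused RNAPII early, had 6 of 15 genes with a peak (40.0%), led by INTS2 (−log10 q 5.01), INTS14 (4.46) and INTS6 (2.62). RNA polymerase I and III subunits had 7 of 19 (36.8%), led by POLR3E (3.32), CRCP (1.52) and POLR3D (1.27). Mediator, which links transcription factors to RNAPII, had 9 of 32 (28.1%), led by MED21 (2.36), MED26 (2.05) and MED8 (1.45). The general transcription factors had 2 of 18 (11.1%), MNAT1 (2.07) and GTF2A1 (1.77).

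A further 30 pausing and elongation genes that are not on the list had 4 with a peak (13.3%), which is near the 15.7% background. The highest values were those of SETD2 (2.72) and XRN2 (2.38). Joined with the 42 listed genes they gave 21 of 72 (29.2%). The share of 40.5% therefore belongs to this choice of genes and was lower over the wider set. Transcription in A549 cells was not analysed here, and its part in these shares was not tested.

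**Figure D5:**
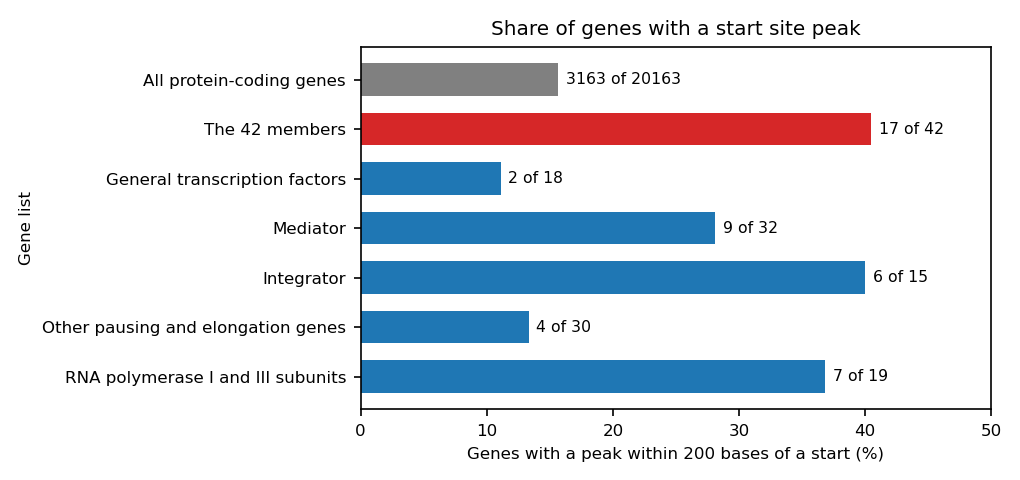
Percent of genes with a peak within 200 bases of a start (x axis) for all protein-coding genes (grey), the 42 listed genes (red) and 5 other lists (blue), with the counts beside the bars. The listed genes (40.5%) and Integrator (40.0%) have the longest bars, and the other pausing and elongation genes (13.3%) and general transcription factors (11.1%) lie below all protein-coding genes (15.7%).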

How the data were processed

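YTHDC1 ChIP-seq reads of the 3 replicates were aligned to hg19 by the authors, pooled and passed to MACS2 for broad peaks (q-value 0.1, broad cutoff 0.25). The methods name Bowtie2 and the submitters' notes BWA. The deposited file holds a position, a name and 1 value for each peak, without counts, so the depth per sample is unknown. The deposited value was read as −log10 of the q-value, since its lowest entry, 0.610, lies just above 0.602, the −log10 of the broad cutoff. Because the replicates are pooled, each peak is called once and no replicate can be left out.

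Peaks, counted from 1, were overlapped with GENCODE release 44 on GRCh37, the assembly of hg19, and all sequences were read from that assembly. The canonical start is that of the Ensembl canonical transcript, or the 5' end of the gene for the 282 protein-coding genes without one. Shares carry 95% Wilson intervals, which cover counting error only. The overlap search was tested on simulated data. Alternatives changed the window, the overlap rule, the peak threshold, the starts used and the promoter window. All 42 genes are named, and of each other list at most the 3 with the highest value. Some paralogues and subunits off the list that had no peak are also named. Sequences were printed for the 4 highest peaks and those shared with another protein-coding start. The genes and lists were chosen with earlier results of these data known. Python 3.11.15, numpy 2.4.6, pandas 2.3.3, scipy 1.17.1, pysam 0.24.0 and matplotlib 3.10.9 were used.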

Additional observations from a re-analysis of the deposited data

How the results depend on the processing

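The count of 17 listed genes with a peak ran from 12 (peak midpoint inside the window) to 18 (windows of 500 or 1000 bases, which added SUPT6H) when the window, the overlap rule or the starts were changed, and that of all protein-coding genes from 2183 to 4023. The midpoint rule lost CCNT1, CDK9, HEXIM1, NELFB and SUPT5H. A stricter peak threshold moved the values most. Keeping peaks of q-value under 0.05 left 9 listed and 1806 protein-coding genes with a peak, and keeping the peaks above the median value of the set left 9 and 1741. The median −log10 q of the listed genes' peaks was then 2.03 in each case, which follows from the threshold. The median width stayed between 392.5 and 494 bases. The listed genes' share was 2.15 to 2.84 times that of all protein-coding genes in the 10 alternatives, against 2.58. With 500 bases on both sides of the canonical start, the promoter GC share was 63.4% with a peak at any start and 63.0% without. No paired analysis was possible because the 3 replicates form a single group and were pooled before peak calling, and for the same reason no replicate could be left out.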
